A study of Mus musculus with 6 samples.

Results

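Small leucine-rich proteoglycans (SLRPs) were followed in the growth plate of the mouse tibia, the cartilage layer through which a long bone lengthens. The members were 10 listed genes of the family, and a probe counted as theirs when its RefSeq accession belonged to one of these symbols. Of the 10 genes, 9 had a probe on the array (1 probe each), and 7 of these were measured well enough to be tested, among 19122 tested genes in all. The 7 were Epyc, Fmod, Ogn, Chad, Dcn, Bgn and Lum. Omd and Aspn had a probe too dim for the tests, and Prelp had no matched probe.

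SLRPs are secreted proteins whose core is a curved stack of leucine-rich repeats. Many of them carry chondroitin, dermatan or keratan sulfate chains. In cartilage and bone they bind collagen fibrils and help set fibril width and spacing, and several also hold growth factors such as TGF-beta in the matrix. Their secretion runs through the endoplasmic reticulum (ER), where ATF6a and ATF6b reside as membrane-bound stress sensors that become transcription factors once cleaved.

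The study compared 3 genotypes with 2 arrays each, namely ATF6aKO, ATF6bKO and wild type (WT). All were untreated male mice of strain C57BL/6J, 4 weeks of age, and the series title names the role of ATF6 in long bone growth as the question. Tissue was taken by laser microdissection per the series' design text, and Cy5-labelled cDNA was made from 150 ng of RNA with an amplification kit. The labels do not describe the knockout alleles, and they do not say if separate animals stand behind the arrays of one genotype, so the p-values measure only the spread between these arrays, which may be technical.

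Between 86.9% and 96.7% of spots on an array were well above background, lowest on ATF6bKO replicate 2 and highest on WT replicate 1. The 4 knockout arrays lay on one slide and the 2 WT arrays on another that was read in a different channel, so for WT against a knockout, genotype and slide cannot be told apart. Knockout arrays correlated across probes at r of at least 0.9704 with each other, while knockout and WT arrays reached at most 0.9057. The value of 0.9704 was that of the 2 ATF6aKO arrays. Pairs of an ATF6aKO and an ATF6bKO array were slightly more alike, at 0.971 to 0.9821. The probes for the targeted genes did not pass the test: Atf6 differed by -0.15 ± 0.16 on the log2 scale in ATF6aKO against WT (SE; limma adjusted p = 0.498), and Atf6b by -0.54 ± 0.21 in ATF6bKO against WT (limma adjusted p = 0.0824). The labels do not locate the deleted parts, so these probes check nothing about the genotypes. In such bulk tissue fewer cells of a type and less RNA per cell cannot be told apart.

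Epyc, Fmod and Ogn were higher in ATF6aKO than in WT, by 3.32 to 5.69-fold. With the scanner's processed signal in place of the background correction used here the log2 differences were 3.69 for Epyc, 3.22 for Ogn and 1.97 for Fmod, so the folds of Epyc and Ogn depend on that choice. Of the members only Ogn also passed the test in ATF6bKO against WT. Dcn and Bgn showed another pattern: their WT arrays differed from each other and enclosed the knockouts. For Lum the WT arrays overlapped both knockouts, but the ATF6aKO arrays (7.55 and 8.93) lay farther apart than the WT arrays (8.29 and 7.19). Levels below are normalised log2 intensities (log2 of the background-corrected spot brightness after quantile normalisation), differences are in log2 units, and a gene passed at a Benjamini-Hochberg adjusted limma p under 0.05.

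**Figure D1:**
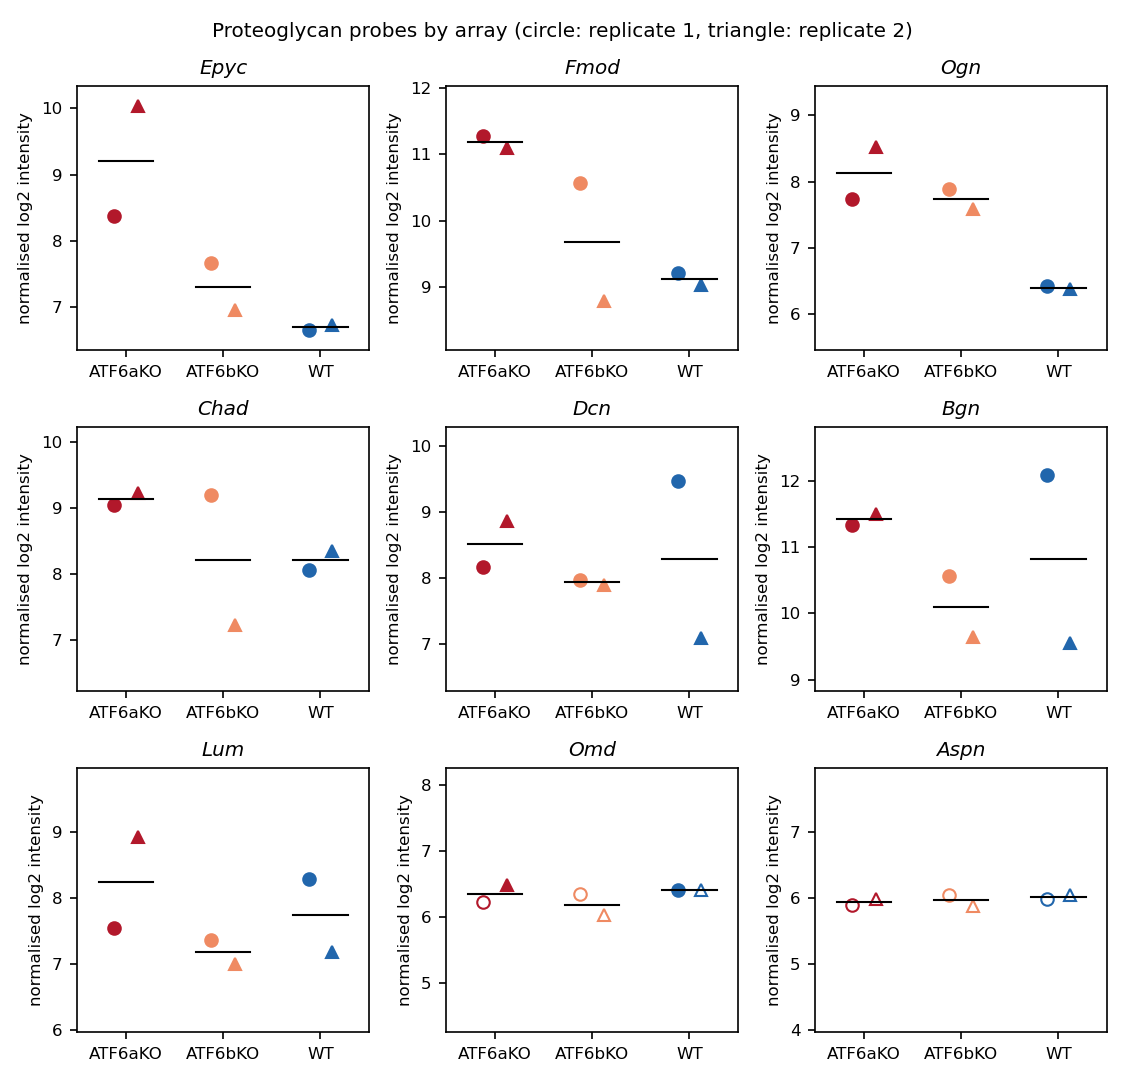
Normalised log2 intensity (vertical axis) of the 9 members with a probe, 1 panel per gene, with a point for each array of ATF6aKO, ATF6bKO and WT (open where not well above background) and a line at each genotype's mean. Epyc, Fmod and Ogn lie higher on both ATF6aKO arrays than on both WT arrays, whereas the WT arrays of Dcn and Bgn lie over 2 log2 units apart.

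Epyc encodes epiphycan, a proteoglycan of epiphyseal and growth plate cartilage that carries dermatan sulfate. Its level was 8.37 and 10.03 in ATF6aKO, against 7.66 and 6.95 in ATF6bKO and 6.65 and 6.73 in WT. Both arrays of each knockout lay above both WT arrays, and ATF6aKO replicate 2 was the highest of all. The mean was 9.20 ± 1.17 in ATF6aKO, 7.30 ± 0.50 in ATF6bKO and 6.69 ± 0.06 in WT (SD, n = 2 each). ATF6aKO exceeded WT by 2.51 ± 0.49 (SE; 95% interval 1.37 to 3.65), a 5.69-fold difference (limma adjusted p = 0.00607). The difference was 3.34 without ATF6aKO replicate 1 and 1.68 without replicate 2. The ATF6bKO difference from WT was 0.61 ± 0.49 and did not pass (limma adjusted p = 0.354). The order of levels was ATF6aKO, ATF6bKO, WT, and only the ends of that order differed past the threshold. The raw spot brightness behind these levels was 299 and 889 in ATF6aKO, against 161 and 87.5 in ATF6bKO and 97 and 84 in WT.

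Fmod encodes fibromodulin, a keratan sulfate proteoglycan that binds collagen fibrils and the crosslinking enzyme lysyl oxidase. Its level was 11.28 and 11.10 in ATF6aKO, against 10.57 and 8.79 in ATF6bKO and 9.20 and 9.03 in WT. The ATF6aKO arrays lay close together and above all others, while ATF6bKO replicate 1 lay above WT and replicate 2 below it. ATF6aKO exceeded WT by 2.07 ± 0.49 (SE; 95% interval 0.94 to 3.21), 4.21-fold (limma adjusted p = 0.0124). That call was lost with a trended, robust variance (limma adjusted p = 0.0609) and without either ATF6aKO array (0.0689 without replicate 1 and 0.069 without replicate 2), with differences of 1.98 to 2.16 throughout. For ATF6bKO against WT the difference was 0.57 ± 0.49 (limma adjusted p = 0.389). It was 1.45 without ATF6bKO replicate 2 and -0.32 without ATF6bKO replicate 1.

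Ogn encodes osteoglycin, also called mimecan, a small keratan sulfate proteoglycan found in bone and connective tissue. Its level was 7.73 and 8.52 in ATF6aKO, against 7.89 and 7.59 in ATF6bKO and 6.42 and 6.37 in WT. All 4 knockout arrays lay above both WT arrays, and the 2 knockouts overlapped. Ogn was well above background on both WT arrays, but its WT levels were about those of Omd in WT (6.41 and 6.41). Omd was too dim for the tests, so the Ogn folds against WT rest on a WT signal near background. ATF6aKO exceeded WT by 1.73 ± 0.27 (SE; 95% interval 1.11 to 2.35), 3.32-fold (limma adjusted p = 0.00248). ATF6bKO exceeded WT by 1.35 ± 0.27 (95% interval 0.73 to 1.97), 2.54-fold (limma adjusted p = 0.00739), though without ATF6bKO replicate 1 the difference of 1.2 missed the threshold (limma adjusted p = 0.0609). With the processed signal it was 2.85. The raw brightness was 192 and 299 in ATF6aKO, against 188 and 134 in ATF6bKO and 71.5 and 53 in WT. In the order ATF6aKO, ATF6bKO, WT, only the step between the knockouts was not past the threshold (0.39 ± 0.27, limma adjusted p = 0.913).

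Chad encodes chondroadherin, a cartilage protein without glycosaminoglycan chains that binds collagen and integrin on chondrocytes. Its level was 9.04 and 9.22 in ATF6aKO, against 9.19 and 7.22 in ATF6bKO and 8.06 and 8.35 in WT. Both ATF6aKO arrays lay above WT, whereas ATF6bKO replicate 1 matched ATF6aKO and replicate 2 was the lowest of the 6. The ATF6aKO difference from WT was 0.93 ± 0.54 (SE; 95% interval -0.33 to 2.18) and did not pass (limma adjusted p = 0.198). The fit takes its spread from all 6 arrays, and with only the ATF6aKO and WT arrays the same difference passed (limma adjusted p = 0.0147). In ATF6bKO the difference from WT was 0.01 ± 0.54 (limma adjusted p = 0.994). Without ATF6bKO replicate 2 it was 0.99, and without replicate 1 it was -0.98.

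Promoter sequence is shown for these 4 genes because Epyc, Fmod and Ogn were called together and Chad lay nearest to Fmod in profile. The windows are the 250 bases before each RefSeq start (build GRCm38.p6, plus strand), with matches to the searched motifs in capitals. Epyc has 2 annotated starts and therefore 2 windows.
Fmod, chr1:134037004-134037253: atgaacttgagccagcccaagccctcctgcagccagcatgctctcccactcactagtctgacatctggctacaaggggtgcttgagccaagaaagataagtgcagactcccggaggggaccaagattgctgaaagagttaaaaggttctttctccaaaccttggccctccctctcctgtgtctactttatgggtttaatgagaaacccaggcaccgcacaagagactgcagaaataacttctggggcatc
Epyc first start, chr10:97643818-97644067: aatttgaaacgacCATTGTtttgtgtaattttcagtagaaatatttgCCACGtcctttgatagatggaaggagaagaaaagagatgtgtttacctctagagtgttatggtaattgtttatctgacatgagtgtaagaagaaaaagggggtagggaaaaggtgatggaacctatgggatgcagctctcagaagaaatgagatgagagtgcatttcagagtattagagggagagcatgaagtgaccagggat
Epyc second start, chr10:97646853-97647102: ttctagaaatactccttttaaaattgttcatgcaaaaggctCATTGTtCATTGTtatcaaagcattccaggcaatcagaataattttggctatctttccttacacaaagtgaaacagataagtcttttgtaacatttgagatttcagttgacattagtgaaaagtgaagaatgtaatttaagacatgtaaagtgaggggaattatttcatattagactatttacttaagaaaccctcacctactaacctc
Chad, chr11:94564797-94565046: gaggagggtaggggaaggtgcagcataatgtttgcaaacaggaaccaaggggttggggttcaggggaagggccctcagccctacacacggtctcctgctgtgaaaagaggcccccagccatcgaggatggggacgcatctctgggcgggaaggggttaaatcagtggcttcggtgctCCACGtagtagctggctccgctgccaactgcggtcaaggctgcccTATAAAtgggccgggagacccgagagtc
Ogn, chr13:49607765-49608014: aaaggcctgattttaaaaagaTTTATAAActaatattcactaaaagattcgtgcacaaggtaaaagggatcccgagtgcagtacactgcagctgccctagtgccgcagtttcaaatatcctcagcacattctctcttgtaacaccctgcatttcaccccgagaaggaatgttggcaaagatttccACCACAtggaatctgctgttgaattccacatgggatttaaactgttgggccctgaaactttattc

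The searched motifs, on both strands, were the ER stress elements ERSE (CCAAT and CCACG with 9 bases between them) and ERSE-II (ATTGG and CCACG with 1 base between them), the core of the unfolded protein response element (TGACGTGG), the shared end CCACG alone, a SOX core ACAATG, the TATA box TATAAA and a RUNX core TGTGGT. A match to either ERSE motif is therefore also a match to CCACG. Among 32851 windows of this length in the RefSeq promoter table, 0.113% held ERSE, 0.0304% ERSE-II and 0.563% the response element core. None of the 9 windows found for 8 of the 10 members held any of these 3 (Dcn and Lum had none in the table). CCACG stood 203 bases before the first Epyc start and 73 bases before the Chad start, and 28.3% of all windows held it. The SOX core occurred once in the first Epyc window, at 237 bases, and at 209 and 202 bases in the second, and 3512 of the 32851 windows held it. A TATA box stood 28 bases before the Chad start and farther upstream for Ogn (12.4% of windows), and the RUNX core 65 bases before the Ogn start (14.0% of windows). The Fmod window held no match. These are matches of letters only and describe no binding.

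Dcn encodes decorin, a proteoglycan with a single chondroitin or dermatan sulfate chain that binds type I collagen and TGF-beta. Its level was 8.16 and 8.86 in ATF6aKO, against 7.97 and 7.90 in ATF6bKO and 9.47 and 7.10 in WT. WT replicate 1 was the highest array and WT replicate 2 the lowest, so every knockout array lay between them. The ATF6aKO difference from WT was 0.23 ± 0.66 (SE; 95% interval -1.30 to 1.75; limma adjusted p = 0.8), and that of ATF6bKO was -0.35 ± 0.66 (limma adjusted p = 0.7). The direction followed which WT array was kept. Without WT replicate 1, Dcn was 1.41 higher in ATF6aKO and 0.84 higher in ATF6bKO. Without WT replicate 2, Dcn was -0.96 in ATF6aKO and -1.54 in ATF6bKO relative to WT.

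Bgn encodes biglycan, the closest relative of decorin, which carries a pair of chains and is abundant in bone and cartilage. Its level was 11.34 and 11.51 in ATF6aKO, against 10.56 and 9.64 in ATF6bKO and 12.09 and 9.55 in WT. The WT arrays again enclosed all 4 knockout arrays. In raw brightness the ATF6aKO arrays read 2389.5 and 2673.5 and the ATF6bKO arrays 1193 and 578, against 6383 and 942 in WT. The ATF6aKO difference from WT was 0.60 ± 0.71 (limma adjusted p = 0.518) and that of ATF6bKO was -0.72 ± 0.71 (limma adjusted p = 0.454). Without WT replicate 1 these were 1.87 and 0.55, and without WT replicate 2 they were -0.67 and -1.99.

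Lum encodes lumican, a keratan sulfate proteoglycan of cornea and many connective tissues. Its level was 7.55 and 8.93 in ATF6aKO, against 7.37 and 7.01 in ATF6bKO and 8.29 and 7.19 in WT. ATF6aKO replicate 2 was the highest and ATF6bKO replicate 2 the lowest, and WT overlapped both knockouts. The ATF6aKO difference from WT was 0.50 ± 0.49 (limma adjusted p = 0.434) and that of ATF6bKO was -0.55 ± 0.49 (limma adjusted p = 0.405). The first was -0.19 without ATF6aKO replicate 2 and -0.05 without WT replicate 2.

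Omd encodes osteomodulin, a keratan sulfate proteoglycan of bone, and Aspn encodes asporin, which has an aspartate-rich stretch and binds TGF-beta. Omd read 6.22 and 6.48 in ATF6aKO, against 6.34 and 6.02 in ATF6bKO and 6.41 and 6.41 in WT, and was well above background only on ATF6aKO replicate 2 and WT replicate 1. Aspn read 5.90 and 5.98 in ATF6aKO, against 6.05 and 5.88 in ATF6bKO and 5.99 and 6.05 in WT, and was not well above background on any array. No fold is given for either. When the filter on dim probes was dropped, neither passed in any comparison, with limma adjusted p of at least 0.356.

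Across the 7 tested members, 3 were higher in ATF6aKO than in WT and 0 were lower by limma (0 lower at an unadjusted p under 0.05). Of all tested genes 42.7% passed in one direction or the other, 20.3% higher and 22.3% lower, and 52.2% lay under 0.05 before adjustment. The median difference over the 7 was 0.93, against -0.027 over all genes. Both ATF6aKO arrays lay above both WT arrays for 4 members (Epyc, Fmod, Ogn and Chad), and for 34.6% of all genes. In ATF6bKO against WT, 1 of the 7 was higher, with 37.6% of all genes called and 17.3% called higher. Both ATF6bKO arrays lay above both WT arrays for 2 members (Epyc and Ogn), and for 33.3% of all genes. The median was 0.01, against -0.052 over all genes. Single arrays moved these values. Without WT replicate 1 the ATF6aKO median was 1.76, and without ATF6bKO replicate 2 the ATF6bKO median was 0.97. Dcn and Bgn lay above WT in both knockouts without WT replicate 1 and below it without WT replicate 2. Because WT is shared by both comparisons, their values for a member are not independent.

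**Figure D2:**
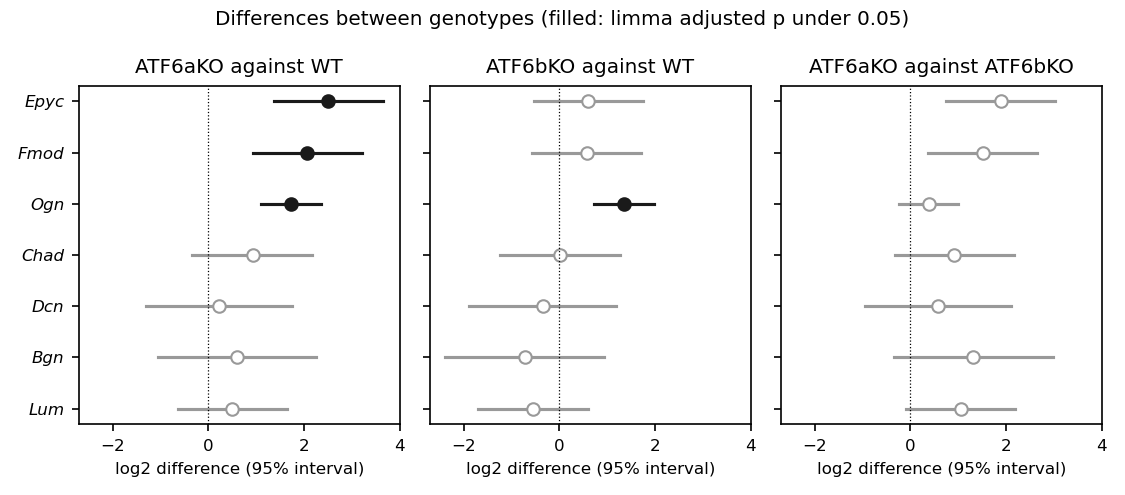
Log2 difference (horizontal axis) with its 95% interval for each of the 7 tested members in ATF6aKO against WT, ATF6bKO against WT and ATF6aKO against ATF6bKO. Filled points mark limma adjusted p under 0.05: Epyc, Fmod and Ogn in the first comparison, Ogn in the second and none in the third.

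ATF6aKO against ATF6bKO was measured within one slide, with each genotype in its own row of it. All 7 members had a higher mean in ATF6aKO, with differences between 0.39 (Ogn) and 1.89 (Epyc), but none passed by limma, as was so for all 19122 genes (percentage called 0). The ATF6aKO arrays both lay above the ATF6bKO arrays for 5 members (Epyc, Fmod, Bgn, Lum and Dcn) and for 20.1% of all genes. Epyc differed by 1.89 ± 0.49 (SE; 95% interval 0.75 to 3.03; limma unadjusted p = 0.00531, adjusted p = 0.642). Fmod differed by 1.51 ± 0.49 (95% interval 0.37 to 2.64; limma unadjusted p = 0.0159, adjusted p = 0.669). These were the 2 members under 0.05 before adjustment, where 1169 genes (6.11%) lay. The median over the 7 was 1.05, against -0.005 over all genes. In the same comparison it was 1.4 over 15 cartilage chondrocyte markers and 0.82 over 8 hypertrophic chondrocyte markers, lists described below. Single arrays brought 2 of the member differences to just below 0: Ogn was -0.01 without ATF6aKO replicate 2 and Chad -0.07 without ATF6bKO replicate 2.

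**Figure D3:**
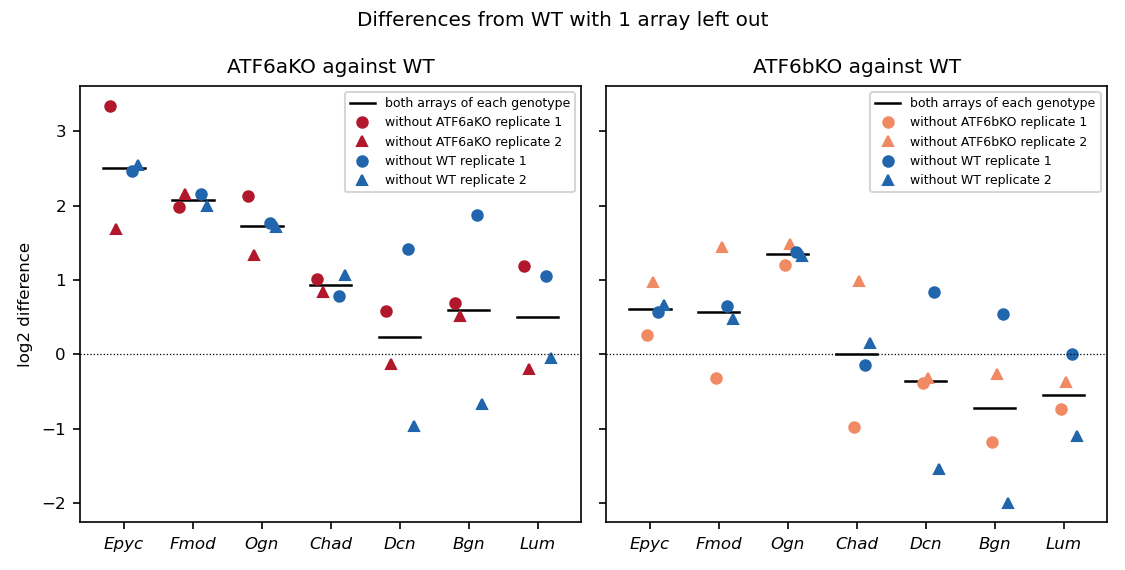
Log2 difference from WT of each tested member in ATF6aKO and in ATF6bKO with all arrays (line) and with each array of the 2 genotypes compared left out in turn (points). Dcn and Bgn move to opposite sides of 0 with WT replicate 1 or WT replicate 2 left out, while Epyc and Ogn in ATF6aKO stay between 1.33 and 3.34.

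Each member was centred on its own mean over the 6 arrays, and profiles were compared by their root mean square (RMS) difference, in log2 units. Dcn lay nearest to Bgn among the members (RMS 0.42) and Lum nearest to Dcn (0.47). Fmod and Chad were nearest to each other (0.50), Epyc was nearest to Fmod (0.65) and Ogn to Epyc (0.68). The farthest pair was Dcn and Epyc (1.22). The pairs form a range with no gap into separate groups: Lum and Chad (0.75) were about as near as Chad and Ogn (0.76) and nearer than Chad and Epyc (0.86). Dcn and Bgn had unequal WT arrays, with centred values of 1.23 and -1.14 for Dcn and 1.31 and -1.23 for Bgn. Epyc, Fmod and Ogn lay below their mean on both WT arrays by 0.79 or more, and Fmod and Chad lay lowest on ATF6bKO replicate 2 (-1.20 and -1.29).

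**Figure D4:**
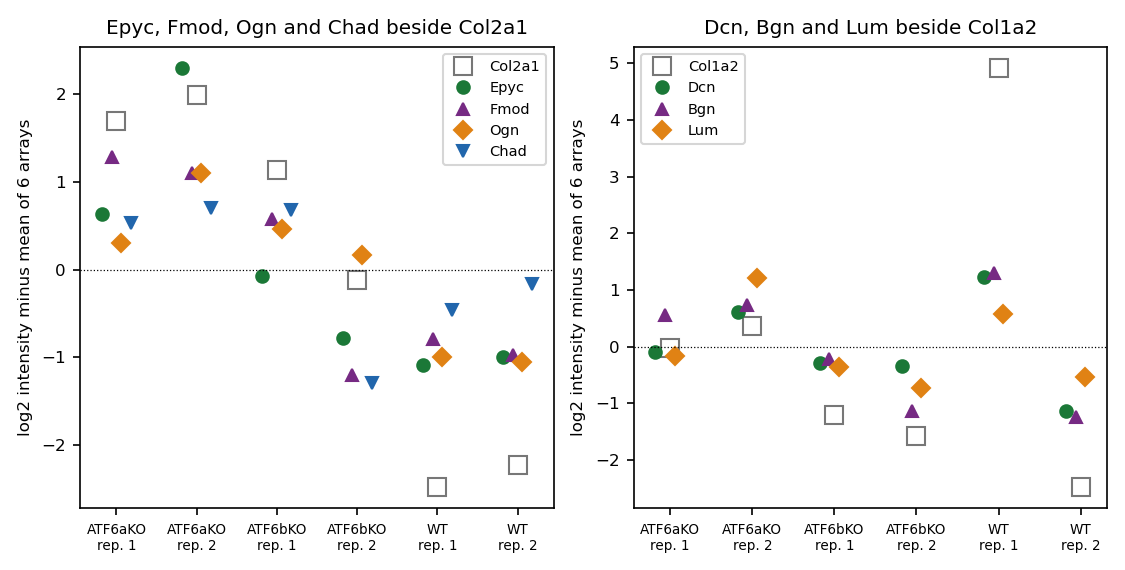
Centred log2 level (vertical axis) on the 6 arrays (horizontal axis) of Epyc, Fmod, Ogn and Chad beside Col2a1 (left) and of Dcn, Bgn and Lum beside Col1a2 (right). Dcn and Bgn are highest on WT replicate 1 and lowest on WT replicate 2, while Epyc and Ogn are highest on ATF6aKO replicate 2 and low on both WT arrays.

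**Figure D5:**
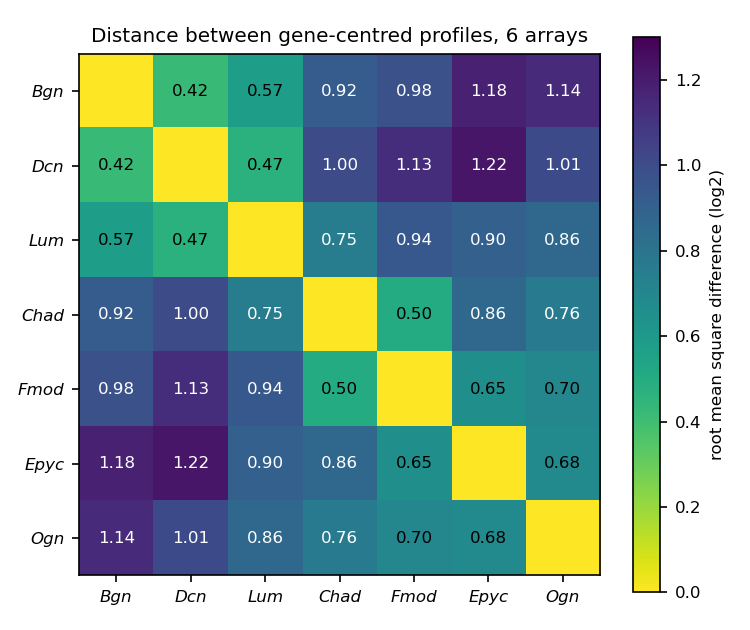
RMS difference in centred log2 level over the 6 arrays for every pair of tested members, with small values for alike profiles. The smallest value is 0.42 for Dcn and Bgn, and the largest 1.22 for Dcn and Epyc.

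None of these likenesses set a member apart from genes outside the family. Between 45 genes (for Bgn) and 5908 genes (for Ogn) lay nearer to a member than its nearest fellow member did. The single nearest gene was Npc2 for Dcn (RMS 0.18), Cd81 for Bgn (0.19), Psma1 for Lum (0.15) and P4ha2 for Fmod (0.24). It was Itm2a for Epyc (0.23), Bud31 for Chad (0.23) and Cnn3 for Ogn (0.08). The median RMS of all genes from a member was between 0.76 and 1.22. In RefSeq order Dcn, Lum, Kera and Epyc are consecutive coding genes on chromosome 10, and Dcn and Epyc of this row were the pair with the farthest profiles. Ecm2, Aspn, Omd and Ogn are likewise consecutive on chromosome 13.

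Markers of cartilage, bone and other cell types also differed between these arrays. All 15 cartilage chondrocyte markers were measured, and their normalised intensity summed to 122400 and 137800 on the ATF6aKO arrays, to 71170 and 34740 on the ATF6bKO arrays, and to 20850 and 27570 on the WT arrays. Of the 15, 13 were higher and 1 lower in ATF6aKO against WT, and 7 were higher and 2 lower in ATF6bKO against WT. Of all genes 20.3% were higher and 22.3% lower in ATF6aKO, and 17.3% and 20.3% in ATF6bKO, and the list counts below are set beside the same shares. Col2a1, the main cartilage collagen and a ligand of several SLRPs, read 15.06 and 15.36 in ATF6aKO, against 14.51 and 13.25 in ATF6bKO and 10.88 and 11.15 in WT. Epyc, Fmod and Ogn were thus higher in the genotype whose cartilage markers were higher, and ATF6bKO replicate 2, low for Fmod and Chad, had the lower cartilage sum of its genotype. The part of the marker difference in the member differences was not tested.

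For the osteoblast and osteocyte list, 9 of 12 markers were kept, and the sum was 13650 and 12830 in ATF6aKO, against 12100 and 11220 in ATF6bKO and 89220 and 8754 in WT. Col1a2, a chain of bone's type I collagen, read 11.08 and 11.46 in ATF6aKO, against 9.89 and 9.53 in ATF6bKO and 16.02 and 8.62 in WT. Col1a1, the other chain, read 7.18 and 6.81 in ATF6aKO, against 6.70 and 6.33 in ATF6bKO and 13.65 and 6.74 in WT (not well above background on ATF6bKO replicate 2). WT replicate 1, the array on which Dcn and Bgn were highest, thus had the highest sum, and these 2 collagens made up most of it. The list did not separate the WT arrays as a whole: Bglap3, an osteocalcin-family gene, read 13.27 and 13.07 in ATF6aKO, against 13.21 and 13.14 in ATF6bKO and 12.52 and 12.53 in WT. Of the 9 kept markers 1 was higher and 3 lower in each knockout against WT. Osteoclast markers (8 of 8 kept) summed to 5205 to 6067 on the knockout arrays, against 19820 on WT replicate 1 and 5003 on WT replicate 2. The perichondrium, tendon and synovium list (12 of 13 kept) did not separate the WT arrays in this way, with sums of 4664 to 4733 in ATF6aKO, 4694 to 5110 in ATF6bKO, and 5962 to 6330 in WT.

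Other cell types differed too. Endothelial markers (9 kept) were higher for 0 and lower for 6 in ATF6aKO, and higher for 0 and lower for 5 in ATF6bKO, each against WT. Macrophage markers (7 kept) were higher for 1 and lower for 5 in ATF6aKO, and higher for 1 and lower for 4 in ATF6bKO. Erythroid markers (5 kept) summed to at most 967.9 on the knockout arrays, against 30800 and 5249 in WT. Hba-a1, at 14.81 and 11.76 in WT, made up most of both WT sums. Of the 5 erythroid markers, 1 was higher and 2 lower in each knockout against WT. Hypertrophic chondrocyte markers (8 kept) were higher for 4 and lower for 1 in ATF6aKO, and higher for 3 and lower for 1 in ATF6bKO. Whether tissue makeup has a part in the member values was not tested.

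The rest of the SLRP pathway was counted from lists that were chosen with earlier results of these data known. Of 9 other SLRP genes, 3 were higher and 2 lower in ATF6aKO against WT, and 2 higher and 2 lower in ATF6bKO against WT. Of all genes 42.7% and 37.6% were called in either direction in these comparisons, and a list of 9 genes is too short to set apart from those shares. Kera, which encodes the corneal proteoglycan keratocan and lies between Lum and Epyc, read 7.06 and 7.40 in ATF6aKO, against 7.13 and 7.15 in ATF6bKO and 6.34 and 6.64 in WT. It was higher by 0.74 ± 0.19 in ATF6aKO (SE; limma adjusted p = 0.0168) and by 0.65 in ATF6bKO (limma adjusted p = 0.0316). Neither call was stable to single arrays. The ATF6aKO call was lost without ATF6aKO replicate 2 (limma adjusted p = 0.0921) or WT replicate 1 (0.06), and the ATF6bKO call without ATF6bKO replicate 1 (0.131), ATF6bKO replicate 2 (0.129) or WT replicate 1 (0.117). Ecm2, an SLRP relative beside Aspn, read 6.93 and 7.09 in ATF6aKO, against 6.86 and 7.08 in ATF6bKO and 7.71 and 7.80 in WT. It was lower in both knockouts, at -0.75 ± 0.17 in ATF6aKO (limma adjusted p = 0.0102) and -0.79 in ATF6bKO (limma adjusted p = 0.00937), a call lost without ATF6bKO replicate 1 (limma adjusted p = 0.0805).

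Of the genes that attach and modify the sugar chains, 17 of 20 were kept. In ATF6aKO against WT 4 were higher and 6 lower, beside 20.3% and 22.3% of all genes, and in ATF6bKO against WT 3 were higher and 5 lower, beside 17.3% and 20.3%. Dsel, related to the epimerase that makes dermatan sulfate, was higher by 1.94 ± 0.18 in ATF6aKO (SE; limma adjusted p = 0.000659) and by 1.98 in ATF6bKO (limma adjusted p = 0.000764). Xylt2, one of the xylosyltransferases that start a chain, was -1.03 ± 0.16 in ATF6aKO against WT (limma adjusted p = 0.00245) and -0.83 in ATF6bKO against WT (limma adjusted p = 0.0062). When its probes were averaged, however, the ATF6aKO difference was -0.28 (limma adjusted p = 0.174).

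Of 12 processing and degradation genes, 3 were higher and 2 lower in ATF6aKO, and 2 higher and 4 lower in ATF6bKO, each against WT, beside 42.7% and 37.6% of all genes called in either direction. Pcolce2, an enhancer of procollagen C-proteinase, was higher by 2.99 ± 0.48 in ATF6aKO (SE; limma adjusted p = 0.00289) and by 1.69 in ATF6bKO (limma adjusted p = 0.0282). Tll1, a protease of the BMP1 family, was -1.30 ± 0.25 in ATF6aKO (limma adjusted p = 0.00572) and -1.28 in ATF6bKO (limma adjusted p = 0.00716). With its probes averaged the ATF6aKO difference was -0.48 (limma adjusted p = 0.0881). Of 19 kept binding partners of 20, 4 were higher and 2 lower in ATF6aKO, and 3 higher and 3 lower in ATF6bKO, fewer in proportion than the 42.7% and 37.6% of all genes. Tgfb2, a TGF-beta ligand, was higher by 2.40 ± 0.20 in ATF6aKO (limma adjusted p = 0.000568) and by 2.11 in ATF6bKO (limma adjusted p = 0.000841), and by 1.24 and 1.08 with its probes averaged. Col2a1 was higher by 4.19 ± 0.37 in ATF6aKO (limma adjusted p = 0.000622) and by 2.86 in ATF6bKO (limma adjusted p = 0.00177). With the processed signal the ATF6aKO differences of Kera, Dsel, Tll1 and Tgfb2 from WT were larger, at 1.82, 2.59, -2.28 and 3.3. In ATF6aKO against ATF6bKO none of these 4 lists, with 9, 17, 12 and 19 kept genes, had a member past the limma threshold. At a limma unadjusted p under 0.05 stood Col2a1 (a difference of 1.33 ± 0.37), Col11a1, Col6a1, Col6a2, Pcolce2 and Fam20b, all higher in ATF6aKO. No other gene of the 4 lists lay under 0.05, where 6.11% of all genes lay.

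The authors' deposited value table gave other directions for some of these genes. Its knockout columns follow the green channel and not the labelled red one. In it Fmod was -1.95 in ATF6aKO and -2.30 in ATF6bKO relative to WT, Col2a1 -0.45 and -0.95, and Pcolce2 -0.50 in ATF6aKO. Ogn was 4.75 in ATF6aKO and 5.70 in ATF6bKO there, and the median over all genes was 0.85 in both comparisons. Ecm2, Dsel, Xylt2 and Tll1 did not pass in ATF6aKO there. It served only as an alternative.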

How the data were processed

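Cy5-labelled cDNA made from microdissected growth plate RNA was hybridised to Agilent mouse arrays, 1 array per sample, per the labels' protocols. The deposited scanner files give a brightness (intensity) for every spot. The submitters' processing notes name Agilent Feature Extraction 10.7.1.1. Knockout arrays were read, per the file headers, with a 2-channel protocol for Cy5 only (red channel used) and the WT arrays with 1 channel, named green. The authors' deposited value table holds log2 values. Set against the scanner signals, its column differences followed green on every array (r of at least 0.998, against at most 0.1012 for red within the knockout slide), so its direction is that of the green signal, while how its arrays and probes were centred stays unknown. Its column medians were 0.2 and 0.1 in ATF6aKO, against 0 and 0.227 in ATF6bKO and -0.5 on each WT array.

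From the intensities, median spot and background signals were corrected with normexp (offset 50), taken to log2, stripped of control and outlier spots, averaged per probe and quantile normalised. Probes were named by RefSeq accession through a GRCm38.p6 table (26582 of 55681 matched). The array design uses an older build, so no probe position is given. A probe entered the tests if some genotype had it well above background on each of its 2 arrays, and a gene was represented by its brightest such probe. All 19122 genes were fitted over 6 arrays with limma 3.58.1 (R 4.3.3) with Benjamini-Hochberg adjustment at 0.05. The procedure was tested on simulated data.

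Members and lists were chosen with earlier results of these data known. The naming rule took every member, Atf6 and Atf6b, the 2 list genes of smallest p in each comparison, each marker list's brightest and smallest-p gene, and each member's nearest gene by RMS difference. Which of these to print, and Col11a1, Col6a1, Col6a2 and Fam20b, were chosen after their values were seen. Alternatives changed background correction, scaling, filter, probe choice, variance model, arrays entered and replicate block, and the closing section gives their effect.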

Additional observations from a re-analysis of the deposited data

Results flagged for a closer look

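The green channel of the knockout arrays, which the labels do not name and the comparisons do not use, held a few member spots well above background. Of 36 such spots (9 probes on 4 arrays) 3 were marked so: Ogn at an intensity of 44 on ATF6aKO replicate 2 and 35 on ATF6bKO replicate 2, and Bgn at 34 on ATF6aKO replicate 2. The other member spots read 16 to 30.5 there. Across all probes, 8.5% to 12.5% of spots were well above background in this channel on the knockout arrays. No array without labelled RNA was at hand for a background, and the source of this signal was not tested.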

How the results depend on the processing

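Apart from the authors' table, 210 member differences were recomputed under settings that kept all compared arrays, and 207 kept their direction and side of the threshold. The exceptions were Fmod in ATF6aKO against WT with a trended, robust variance (2.07, limma adjusted p = 0.0609), Chad in the same comparison with only the 4 arrays compared, and Chad in ATF6bKO against WT without background correction (0). Most of these settings could not turn a direction. Each member had 1 probe, and all 7 tested were well above background on every array, so filter and probe choice left their differences unchanged. Variance model, arrays entered and replicate block could change only the p-values. Only the changes of background correction and scaling could move a difference. Leaving out single arrays changed 24 of 126 member differences or their calls. The 126 include comparisons that the left-out array did not enter, where the difference could not move. Of the 24, 13 turned direction or came to 0. The count of members past the threshold then ranged from 2 to 5 for ATF6aKO against WT and from 1 to 3 for ATF6bKO against WT, and stayed at 0 for ATF6aKO against ATF6bKO. The median member difference ranged from 0.84 to 1.76, from -0.38 to 0.97 and from 0.62 to 1.78 in these comparisons. In ATF6aKO against WT, Dcn ranged from -0.96 to 1.41, Bgn from -0.67 to 1.87 and Lum from -0.19 to 1.19. In ATF6bKO against WT, Dcn ranged from -1.54 to 0.84, Bgn from -1.99 to 0.55, Fmod from -0.32 to 1.45, Lum from -1.10 to 0 and Chad from -0.98 to 0.99. In ATF6aKO against ATF6bKO, Chad ranged from -0.07 to 1.90 and Ogn from -0.01 to 0.78.

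With the authors' table the member median was 0.05 for ATF6aKO against WT (0.85 over all genes, with 6893 higher and 2824 lower), -0.85 for ATF6bKO against WT (0.85 over all genes, 3 members past the threshold beside 51.7% of all genes) and 0 for ATF6aKO against ATF6bKO (0.025 over all genes). It turned Bgn (-0.90), Fmod (-1.95), Chad (-0.85), Pcolce2 (-0.50) and Col2a1 (-0.45) in the first, Fmod (-2.30), Lum (0.65), Chad (-0.85) and Col2a1 (-0.95) in the second, and Lum (-0.60) and Ogn (-0.95) in the third, where Chad was 0. The cause was not tested.

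Scaling to the 75th percentile moved the median of all genes to 0.132 in ATF6aKO against WT and 0.157 in ATF6bKO against WT. The split of calls became 5163 higher and 3601 lower, against 3886 and 4271 in ATF6aKO against WT, and 4828 and 3053, against 3313 and 3877, in ATF6bKO against WT. It changed no member call. With the processed signal Epyc was 3.69 and Ogn 3.22 in ATF6aKO against WT, and no member call changed. Over all genes, calls fell to 4682 without ATF6aKO replicate 2 in ATF6aKO against WT (8157 with all arrays). In ATF6bKO against WT they fell to 3080 and 3795 without ATF6bKO replicate 1 and 2 (7190 with all). In ATF6aKO against ATF6bKO 8 genes passed without ATF6aKO replicate 2.

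Replicate numbers were shared across genotypes, and the deviations of same-numbered arrays from their genotype mean correlated at r = -0.156, -0.074 and 0.197 for the pairs of genotypes. With 2 arrays per genotype this cannot show if same-numbered arrays were handled together. With the replicate block 7594, 6630 and 0 genes passed, no member call changed, and the member counts stayed at 3, 1 and 0 with medians of 0.93, 0.01 and 1.05. The 2 arrays a genotype limit the precision, and Omd and Aspn lay too near background for a fold. The WT level of Ogn was about as low as that of Omd, which limits the Ogn folds against WT.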
